A study of Mus musculus with 6 samples.

Results

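The Hippo pathway genes described here were the 4 TEAD transcription factors (Tead1, Tead2, Tead3 and Tead4), the co-activators Yap1 and Wwtr1, and 4 of their target genes (Ctgf, Cyr61, Amotl2 and Lats2). They were chosen by gene symbol, with earlier results of these data known, and make up 10 of the 52636 genes in the count table. All 10 passed the expression filter and were among the 17849 genes tested. Ctgf and Cyr61 are also called Ccn2 and Ccn1, and Wwtr1 encodes TAZ.

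RNA was sequenced from mouse embryoid bodies (EBs), aggregates in which embryonic stem (ES) cells differentiate, to ask how the loss of Tnfaip2 changes gene expression during differentiation. EBs were formed for 3 days in hanging drops and then plated on gelatin for 3 days of differentiation. The WT group held 3 samples of the parental E14 line, and the Tnfaip2-/- group held 3 samples of a line derived from E14 by CRISPR/Cas9. The Tnfaip2-/- line is 1 clone with a frameshift and a premature stop codon in the second exon of Tnfaip2. The p-values therefore measure the spread between samples of 1 line per genotype. The authors call these samples biological replicates, and the labels give only replicate numbers. Their spread was small, with a biological coefficient of variation (the spread beyond counting noise) of 0.0215. The samples held between 22489903 and 23804489 counts in the WT group and between 21765931 and 22480962 counts in the Tnfaip2-/- group. Tnfaip2 itself (ENSMUSG00000021281, chr12:111442469-111455018, forward strand, GRCm38) had 7, 4 and 7 counts in WT and 0, 2 and 2 counts in Tnfaip2-/- EBs. The Tnfaip2-/- samples were thus at or under the floor of 3 counts and lay below every WT sample, and the gene was too low to be tested.

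The Hippo pathway is a kinase cascade that restrains growth and takes part in cell fate choices of the early embryo. Its kinases phosphorylate YAP and TAZ and so keep them out of the nucleus; unphosphorylated YAP and TAZ enter the nucleus and switch on genes through TEAD factors, which bind DNA. Pathway activity is set largely by phosphorylation and localization of proteins, which RNA levels do not show.

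Among the 10 genes, Tead1, Yap1 and Lats2 were higher and Tead2, Tead3, Tead4, Wwtr1, Ctgf and Amotl2 were lower in Tnfaip2-/- EBs, whereas Cyr61 did not pass the test. The TEAD factors moved in opposite directions, and the 2 co-activators did so as well. Expression is given as counts per 1000000 counts (CPM), and genes are compared by edgeR's quasi-likelihood test with Benjamini-Hochberg adjustment over all genes tested, with a threshold of 0.05. The 9 of 10 genes called stand beside 67.7% of all genes tested, with 3 genes called higher (34.0% of all genes) and 6 called lower (33.7% of all genes). Against a minimum change of 1.5-fold, 4 of 10 genes passed, beside 15.7% of all genes. Tead1 was the gene past 1.5-fold among the higher ones (9.05% of all genes), and Tead3, Tead4 and Ctgf were those among the lower ones (6.63% of all genes). In each of the 10 genes the samples of the genotypes did not overlap in CPM, as in 69.4% of all genes tested, but the gap was small for Cyr61. The median log2 fold change of the 10 genes was -0.42, beside 0.00 over all genes tested, and the median of the absolute log2 fold changes was 0.63, beside 0.30 over all genes. Because the genes were chosen with earlier results known, these shares and medians are given as description.

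**Figure D1:**
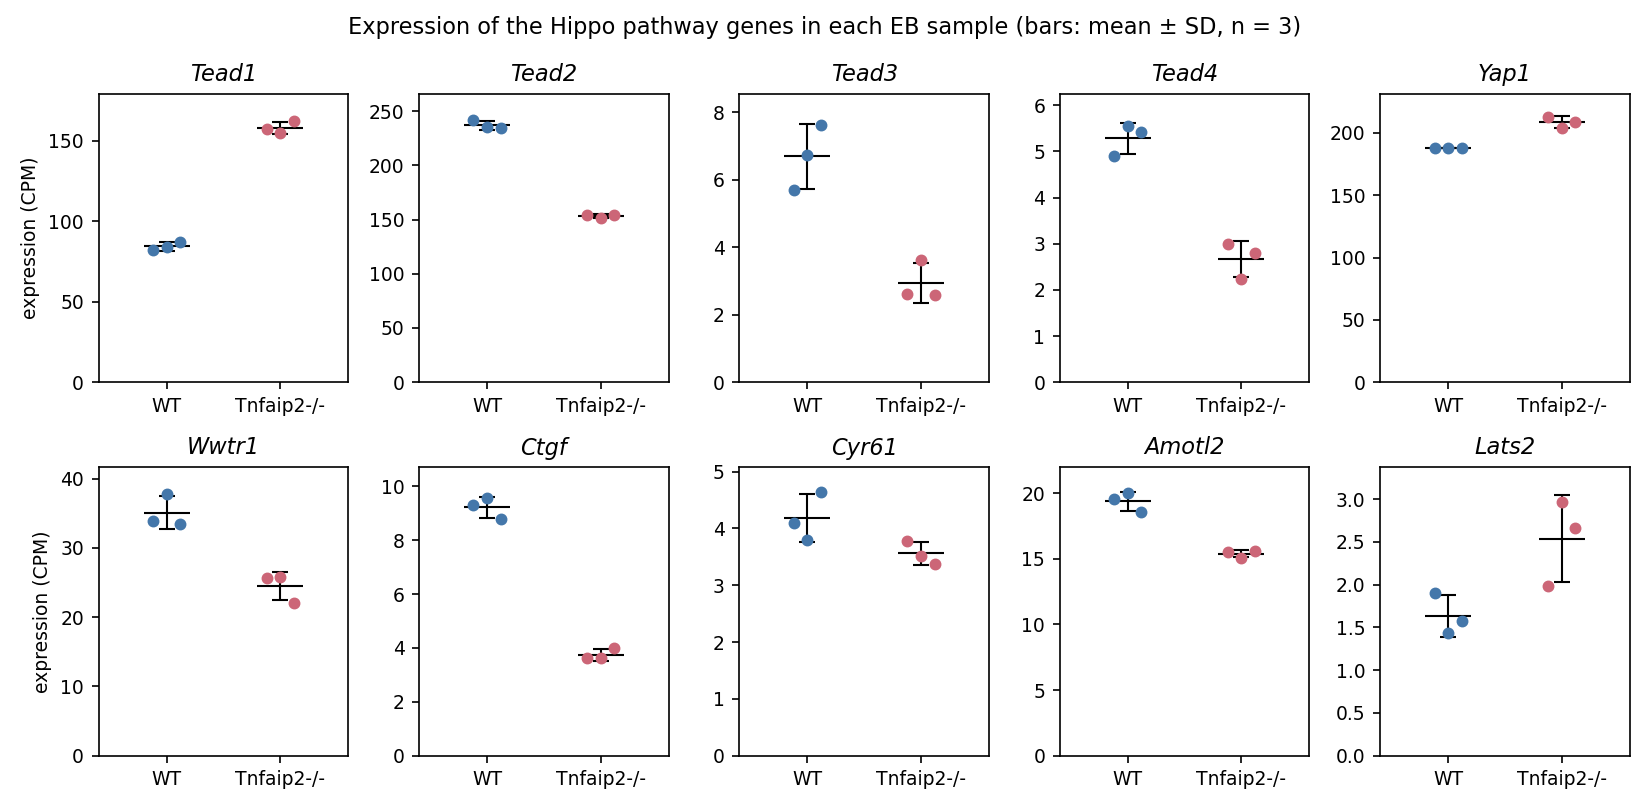
Expression in CPM (vertical axes from 0) of the 10 genes in each WT (blue) and Tnfaip2-/- (red) EB sample, with points for samples and bars for the mean ± SD (n = 3). Tead1 rises from about 84.3 to 158 CPM while Tead2 falls from 237 to 153 CPM, and the points of Cyr61 nearly meet.

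Tead1 (ENSMUSG00000055320, chr7:112679318-112906807, forward strand) and Tead2 (ENSMUSG00000030796, chr7:45215753-45233644, forward strand) were the TEAD factors with most transcripts. Expression of Tead1 was 81.8, 84.2 and 86.8 CPM in the WT samples and 157, 155 and 162 CPM in the Tnfaip2-/- samples. Every Tnfaip2-/- sample was thus well above every WT sample. Tead1 rose from 84.3 ± 2.49 to 158 ± 3.93 CPM (mean ± SD of 3 samples), 1.87-fold. For Tead1 the log2 fold change was 0.91 ± 0.0319 (standard error), with adjusted p = 2.4e-28 in edgeR's quasi-likelihood test. It also passed the test against 1.5-fold (adjusted p = 7.59e-13, edgeR), and 13.9% of all genes tested changed at least as much in either direction. In RNA from whole EBs, a change in the number of cells that express a gene and a change in the RNA per cell cannot be told apart.

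Tead2, a TEAD factor known for its expression in the early embryo and in neural tissue, had 242, 235 and 234 CPM in the WT samples. In the Tnfaip2-/- samples it had 154, 151 and 154 CPM, so that the groups were far apart and the spread within each was small. Tead2 fell from 237 ± 4.27 to 153 ± 1.88 CPM (mean ± SD of 3 samples). For Tead2 the log2 fold change was -0.63 ± 0.0275 (standard error), with adjusted p = 8.63e-25 in edgeR. This change was close to 1.5-fold, and the test against that minimum was not passed (adjusted p = 0.0874, edgeR; range 0.0279 to 0.747 over the alternative settings). It was passed with no expression filter (adjusted p = 0.0279, edgeR) and without WT replicate 3 (adjusted p = 0.0292, edgeR).

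Tead3 and Tead4 were present at much lower levels, and both fell. Tead3 (ENSMUSG00000002249, chr17:28331671-28350817, reverse strand) had 129, 151 and 179 counts in WT and 59, 79 and 57 counts in Tnfaip2-/- EBs. The highest Tnfaip2-/- sample, at 3.61 CPM, was below the lowest WT sample, at 5.69 CPM. Tead3 fell from 6.68 ± 0.965 to 2.92 ± 0.591 CPM (mean ± SD of 3 samples). For Tead3 the log2 fold change was -1.20 ± 0.132 (standard error), with adjusted p = 3.52e-05 in edgeR's test against 1.5-fold.

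Tead4 (ENSMUSG00000030353, chr6:128224288-128300823, reverse strand) is the TEAD factor required for the trophectoderm, the outer layer of the blastocyst. It had 111, 124 and 127 counts in WT and 68, 49 and 62 counts in Tnfaip2-/- EBs, and the groups did not overlap. Tead4 fell from 5.28 ± 0.338 to 2.68 ± 0.392 CPM (mean ± SD of 3 samples). For Tead4 the log2 fold change was -0.98 ± 0.132 (standard error), with adjusted p = 1.1e-08 in edgeR. The test against 1.5-fold was passed (adjusted p = 0.00439, edgeR; range 0.00274 to 0.377 over the alternative settings), but not with DESeq2 (adjusted p = 0.377) or without Tnfaip2-/- replicate 2 (adjusted p = 0.0574, edgeR). Of the windows of 51 bases, the read length, in the transcripts of Tead3 and Tead4, 0.13% and 0.24% also occur in another gene, so that few reads could be shared between paralogues.

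Levels of different genes were compared as CPM per 1000 bases of exon (RPKM), with the union of all annotated exons as length. The summed level of the 4 TEAD factors was 58.8, 57.9 and 57.9 RPKM in the WT samples and 45.1, 44.1 and 45.3 RPKM in the Tnfaip2-/- samples. Tead2 made up 86.0%, 84.9% and 84.4% of this sum in the WT samples and 71.6%, 71.5% and 71.0% in the Tnfaip2-/- samples. By RPKM, Tead2 was thus the most abundant TEAD factor in each of the 6 samples, but its share was smaller in the Tnfaip2-/- samples, without overlap. The share of Tead1 was 10.7% ± 0.396 in WT and 26.0% ± 0.377 in Tnfaip2-/- EBs (SD, n = 3). Tead3 made up 1.71% ± 0.259 in WT and 0.974% ± 0.212 in Tnfaip2-/- EBs, and Tead4 made up 2.52% ± 0.182 and 1.66% ± 0.224 (SD, n = 3). The order of Tead3 and Tead4 depended on the length used, since per longest coding transcript, chosen after seeing the data, Tead3 made up 2.92% and 1.68% and Tead4 made up 2.08% and 1.38% in WT and Tnfaip2-/- EBs, with overlap in the latter. The makeup of the TEAD transcripts thus shifted from Tead2 towards Tead1, and the shares were not tested. Counts without regard to length give more weight to the long transcripts of Tead1. In these, Tead1 made up 25.3% ± 0.771 in WT and 49.9% ± 0.502 in Tnfaip2-/- EBs (SD, n = 3). Tead2 made up 71.1% and 48.4%, so that Tead1 was above Tead2 in each Tnfaip2-/- sample by this measure.

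**Figure D2:**
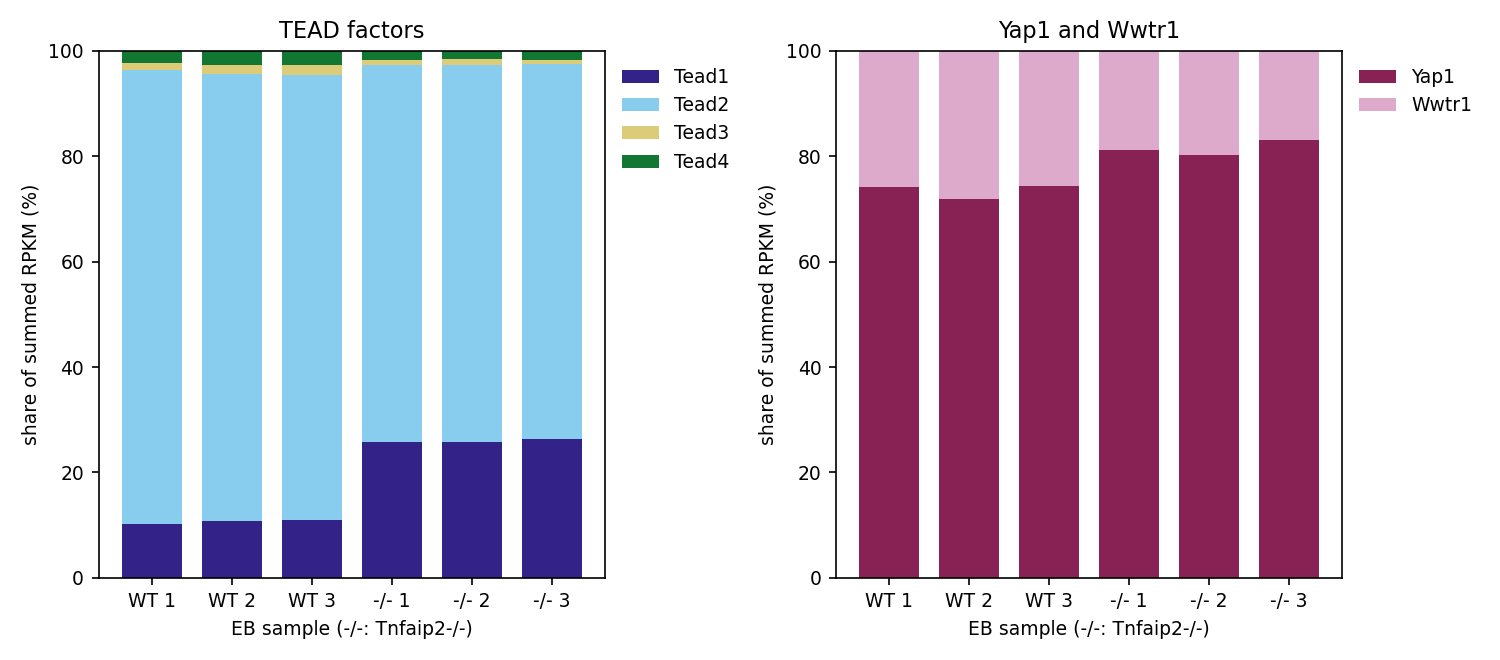
Share (%) of each TEAD factor in the summed RPKM of the 4 factors (left) and of Yap1 and Wwtr1 in their sum (right), with 1 stacked bar for each EB sample. The mean share of Tead1 is 10.7% in WT and 26.0% in Tnfaip2-/- EBs, and the share of Yap1 is higher in the Tnfaip2-/- samples, without overlap.

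Yap1 (ENSMUSG00000053110, chr9:7931999-8004596, reverse strand) encodes YAP, the main effector of the pathway. Its expression was 188 CPM in each of the 3 WT samples, and 213, 204 and 209 CPM in the Tnfaip2-/- samples. The WT samples were nearly identical, and the Tnfaip2-/- samples lay somewhat above them. Yap1 rose from 188 ± 0.246 to 209 ± 4.57 CPM (mean ± SD of 3 samples), 1.11-fold. For Yap1 the log2 fold change was 0.15 ± 0.0272 (standard error), with adjusted p = 4.07e-06 in edgeR. The change was small, and 72.5% of all genes tested changed at least as much.

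Wwtr1 (ENSMUSG00000027803, chr3:57455649-57575910, reverse strand), which encodes the YAP paralogue TAZ, moved the other way. It had 33.9, 37.8 and 33.5 CPM in the WT samples and 25.6, 25.8 and 22.1 CPM in the Tnfaip2-/- samples. All Tnfaip2-/- samples were below all WT samples. Wwtr1 fell from 35.1 ± 2.38 to 24.5 ± 2.04 CPM (mean ± SD of 3 samples). For Wwtr1 the log2 fold change was -0.52 ± 0.0564 (standard error), with adjusted p = 4.05e-11 in edgeR, a change that was not past 1.5-fold (adjusted p = 1, edgeR).

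Since Yap1 rose and Wwtr1 fell, their summed level hardly differed, at 27.6 ± 0.479 RPKM in WT and 27.7 ± 0.583 RPKM in Tnfaip2-/- EBs (SD, n = 3). The samples of the genotypes overlapped in this sum, with 27.3 to 28.2 RPKM in WT and 27.3 to 28.3 RPKM in Tnfaip2-/- EBs. Yap1 made up 74.1%, 71.9% and 74.3% of the sum in the WT samples and 81.1%, 80.3% and 83.0% in the Tnfaip2-/- samples, so that the share of Wwtr1 was lower in each Tnfaip2-/- sample. With the length of the longest coding transcript in place of the union of exons, chosen after seeing the data, the sum was 52.5 ± 0.466 RPKM in WT and 55.2 ± 1.09 RPKM in Tnfaip2-/- EBs, and the groups did not overlap.

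Ordered by RPKM, Tead2 (49.5 ± 0.892) and Yap1 (20.3 ± 0.0266) were the most abundant of the 10 genes in WT EBs, and Lats2 (0.234 ± 0.0344) was the least abundant (SD, n = 3). Wwtr1 (7.34 ± 0.498 RPKM) was above Tead1 (6.21 ± 0.184 RPKM) in WT EBs, whereas Tead1 (11.6 ± 0.289 RPKM) was above Wwtr1 (5.12 ± 0.426 RPKM) in Tnfaip2-/- EBs. Ctgf (3.22 ± 0.141 RPKM) and Amotl2 (3.08 ± 0.115 RPKM), neighbours in the order, overlapped in WT EBs, as did Tead3 (0.436 ± 0.088 RPKM) and Lats2 (0.364 ± 0.0725 RPKM) in Tnfaip2-/- EBs. The order depended on the length used. Per base that no other gene overlaps, a setting chosen after seeing the data, Lats2 (0.632 RPKM) was above Tead3 in Tnfaip2-/- EBs. By that length Ctgf (4.19 RPKM) was further above Amotl2 in WT EBs. Per base of the longest coding transcript, Tead1 (8.46 RPKM) was above Wwtr1 (7.47 RPKM) in WT EBs too, and Yap1 was above Tead2 (45.1 RPKM) in Tnfaip2-/- EBs. By the same length, Amotl2 (4.48 RPKM) was above Ctgf (3.7 RPKM) without overlap and Tead3 (2.41 RPKM) was above Cyr61 (2.07 RPKM), with overlap, and Tead4 (1.72 RPKM) in WT EBs.

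The 4 target genes were compared next, because Ctgf, Cyr61 and Amotl2 are widely used as readouts of YAP and TAZ activity. Ctgf (ENSMUSG00000019997, chr10:24595442-24598683, forward strand) encodes a secreted matricellular protein of the CCN family. It had 211, 214 and 206 counts in WT and 82, 79 and 89 counts in Tnfaip2-/- EBs, which left a wide gap between the groups. Ctgf fell from 9.21 ± 0.404 to 3.74 ± 0.234 CPM (mean ± SD of 3 samples). For Ctgf the log2 fold change was -1.30 ± 0.104 (standard error), with adjusted p = 3.89e-15 in edgeR. The change was past 1.5-fold (adjusted p = 3.06e-08, edgeR), and 7.93% of all genes tested changed at least as much. The gene Gm15270, annotated as a processed transcript, overlaps 23.24% of the exon bases of Ctgf on the opposite strand, and the library kit does not mark strand, so that reads from these bases cannot be assigned to either gene. Gm15270 had at most 2 counts in any sample.

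Cyr61 (ENSMUSG00000028195, chr3:145646976-145649981, reverse strand) encodes another matricellular protein of the CCN family. It had 93, 85 and 109 counts in WT and 86, 77 and 75 counts in Tnfaip2-/- EBs. The lowest WT sample had 3.80 CPM and the highest Tnfaip2-/- sample had 3.78 CPM, and the groups overlapped when library totals alone were used for scaling. Expression was 4.18 ± 0.427 CPM in WT and 3.56 ± 0.205 CPM in Tnfaip2-/- EBs (SD, n = 3), with a log2 fold change of -0.23 (95% interval -0.49 to 0.02), and the test was not passed (adjusted p = 0.108, edgeR; range 0.0586 to 0.346 over the alternative settings). The 2 CCN family targets thus differed in the test, but whether their changes differ from each other was not tested.

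Amotl2 (ENSMUSG00000032531, chr9:102716672-102733418, forward strand) encodes an angiomotin family protein that binds YAP, so that this target can act back on the pathway. It had 444, 448 and 437 counts in WT and 352, 330 and 347 counts in Tnfaip2-/- EBs. The groups were separate, with a modest difference between them. Amotl2 fell from 19.4 ± 0.723 to 15.4 ± 0.3 CPM (mean ± SD of 3 samples). For Amotl2 the log2 fold change was -0.33 ± 0.0635 (standard error), with adjusted p = 1.14e-05 in edgeR, a change that was not past 1.5-fold.

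Lats2 (ENSMUSG00000021959, chr14:57689662-57758388, reverse strand) encodes a kinase that phosphorylates YAP and TAZ, and it is also a target of theirs. It had 43, 32 and 37 counts in WT and 45, 65 and 59 counts in Tnfaip2-/- EBs. The Tnfaip2-/- samples were above the WT samples, by little in replicate 1, where 1.98 CPM stood beside 1.90 CPM in the highest WT sample. Lats2 rose from 1.63 ± 0.24 to 2.54 ± 0.505 CPM (mean ± SD of 3 samples). For Lats2 the log2 fold change was 0.63 ± 0.183 (standard error), with adjusted p = 0.00236 in edgeR. Over the alternative settings the adjusted p ranged from 0.000451 to 0.0493, and it was highest with DESeq2, just under the threshold. The test against 1.5-fold was not passed (adjusted p = 0.766, edgeR). The gene Gm49361, annotated as protein coding, overlaps 42.39% of the exon bases of Lats2 on the same strand and had 0 counts in each sample, and whether reads over both genes were counted was not stated for these libraries. The level of Lats2 may therefore be understated, and per base that no other gene overlaps, a setting chosen after seeing the data, it was 0.407 RPKM in WT and 0.632 RPKM in Tnfaip2-/- EBs.

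Promoters are shown for some of the genes whose upstream bases hold the core letters that TEAD factors bind. Of those shown, Cyr61 and Ptpn14 are listed as targets and Wwtr1 is a co-activator. The 250 bases before each RefSeq start site were searched for GGAATG on both strands (CATTCC on the other), in GRCm38.p6. A RefSeq start site can differ from the start of the gene in GENCODE, and for Amotl2, Lats2 and 1 promoter of Tead3 the searched bases lie within the gene coordinates given above. Of the Tead3 promoters, this one is exonic in 250 of 250 bases and another, which holds 2 matches, in 217. Of 32851 promoters, 4153 (12.6%) hold a match. The table holds 11 promoters of 7 of the 10 genes, and 7 of these promoters, from the 5 genes Amotl2, Cyr61, Tead3, Wwtr1 and Yap1, hold a match. Both promoters of Wwtr1 overlap and share 1 site, so that the 8 matches are 7 different sites. Matches were not found in the promoters of Tead2 and Lats2. Ctgf, Tead1 and Tead4 were not in the promoter table. Capitals mark the match in the promoters of Cyr61 (chr3:145649986-145650235, reverse strand), Wwtr1 (chr3:57575911-57576160, reverse strand) and Ptpn14 (chr1:189728018-189728267, forward strand), the last of which is a pathway gene described below with the other targets. The match begins 103, 136 and 146 bases before the RefSeq start site, in this order. A match describes letters, and binding of a TEAD factor was not measured.
Cyr61: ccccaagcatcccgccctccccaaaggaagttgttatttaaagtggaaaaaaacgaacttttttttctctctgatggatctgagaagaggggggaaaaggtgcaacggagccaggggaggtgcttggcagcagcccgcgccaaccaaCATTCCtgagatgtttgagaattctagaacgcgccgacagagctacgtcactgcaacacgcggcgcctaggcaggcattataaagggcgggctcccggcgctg
Wwtr1: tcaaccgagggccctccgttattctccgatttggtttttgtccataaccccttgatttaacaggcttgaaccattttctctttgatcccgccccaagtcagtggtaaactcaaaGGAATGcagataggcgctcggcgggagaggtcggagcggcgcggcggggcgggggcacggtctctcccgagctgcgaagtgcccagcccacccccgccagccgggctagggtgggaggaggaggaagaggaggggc
Ptpn14: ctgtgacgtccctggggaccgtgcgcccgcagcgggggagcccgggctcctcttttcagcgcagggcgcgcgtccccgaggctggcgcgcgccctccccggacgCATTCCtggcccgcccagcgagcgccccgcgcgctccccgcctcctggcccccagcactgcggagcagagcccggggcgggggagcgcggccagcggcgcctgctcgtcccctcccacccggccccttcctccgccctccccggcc

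The location of the genes was also compared. Tead1 and Tead2 lie on the same chromosome and moved in opposite directions. The median log2 fold change of the genes tested on the chromosomes of the 10 genes ranged from -0.25 on chromosome 17, with 791 genes, to 0.09 on chromosome 9, with 958 genes. Tead3 lies on chromosome 17, Wwtr1 and Cyr61 lie on chromosome 3 (median -0.20, 856 genes), and Ctgf lies on chromosome 10 (median -0.18, 851 genes). The part of these shifts in the changes was not tested.

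The kinases and adaptors that act on YAP and TAZ were then examined. Of 8 genes, 2 rose (beside 34.0% of all genes tested), 3 fell (beside 33.7%) and 3 did not pass the test, with a median log2 fold change of -0.04. Stk3, which encodes the kinase MST2, rose from 16.1 ± 0.528 to 28.7 ± 0.374 CPM (SD, n = 3; log2 fold change 0.83, adjusted p = 2.49e-17, edgeR). Its paralogue Stk4, which encodes MST1, had 76.3 ± 1.04 CPM in WT and 74.8 ± 2.06 CPM in Tnfaip2-/- EBs and overlapped between the groups (adjusted p = 0.49, edgeR). The LATS kinases also differed, since Lats1 fell from 34.4 ± 0.996 to 22.6 ± 2.4 CPM (SD, n = 3; log2 fold change -0.60, adjusted p = 6.05e-13, edgeR) while Lats2 rose. Lats1 was the more abundant paralogue per length in both groups, at 4.72 and 3.10 RPKM in WT and Tnfaip2-/- EBs. Among the NDR kinases, which are related to LATS, Stk38l rose (log2 fold change 0.74) and Stk38 fell by 0.10 on the log2 scale (adjusted p = 7.51e-17 and 0.00532, edgeR). The scaffold gene Sav1 fell by 0.28 on the log2 scale (adjusted p = 0.000107, edgeR), and the MOB1 genes, which encode activators of LATS, had 103 and 104 CPM (Mob1a) and 25.3 and 24.2 CPM (Mob1b) in WT and Tnfaip2-/- EBs.

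Of 22 upstream regulators, 21 were tested, 10 rose and 6 fell, beside 34.0% and 33.7% of all genes, with a median log2 fold change of -0.03. Ptpn14, a phosphatase that binds YAP and is also listed among the targets, had 358, 415 and 359 counts in WT and 1417, 1417 and 1484 counts in Tnfaip2-/- EBs. It rose from 16.5 ± 1.75 to 64.7 ± 2.28 CPM (SD, n = 3; log2 fold change 1.97, adjusted p = 6.42e-33, edgeR), a larger change than in any of the 10 genes. The atypical cadherin gene Fat1 and the kinase gene Map4k4 rose with log2 fold changes of 0.55 and 0.52. Amot, the founding angiomotin and a relative of Amotl2, fell from 37.8 ± 0.564 to 18.2 ± 1.18 CPM (SD, n = 3). Its log2 fold change was -1.05 (adjusted p = 5.42e-22, edgeR). Amotl1, named after its values were seen, fell by 0.20 on the log2 scale (adjusted p = 0.00289, edgeR). The angiomotin genes were not tested as a group. The kinase gene Taok3 fell by 0.84 on the log2 scale (adjusted p = 7.35e-12, edgeR). The log2 fold change of Rassf1 was -0.30 (adjusted p = 0.00954, edgeR; range 0.00127 to 0.106 over the alternative settings), and its call was lost without WT replicate 2 (0.106) and with DESeq2 (0.0855).

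VGLL cofactors compete with YAP and TAZ for TEAD factors or act beside them, and all 4 were low. Vgll3 had 6, 7 and 5 counts in WT and 15, 18 and 16 counts in Tnfaip2-/- EBs. Its log2 fold change was 1.46 ± 0.361 (standard error), with adjusted p = 0.000427 in edgeR. Vgll3 passed the expression filter only through the Tnfaip2-/- samples, so that no rise is concluded from this test. Vgll4 had 79, 86 and 68 counts in WT and 60, 62 and 53 counts in Tnfaip2-/- EBs. The log2 fold change of Vgll4 was -0.38 (adjusted p = 0.0236, edgeR; range 0.00715 to 0.155 over the alternative settings), and the call was lost with DESeq2 (0.155) and without WT replicate 1 (0.0526), WT replicate 2 (0.128) or Tnfaip2-/- replicate 3 (0.0846). Vgll1 had 0 counts in each WT sample and 1, 4 and 5 counts in the Tnfaip2-/- samples, and Vgll2 had 0 counts in each sample, so that neither was tested.

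The other known targets of YAP and TAZ were compared with the 4 target genes above. Of 18 genes, 14 were tested, 8 rose and 4 fell, beside the same 34.0% and 33.7% of all genes, with a median log2 fold change of 0.27, beside -0.28 for the 4 target genes. The directions were thus mixed in both lists. Besides Ptpn14, the largest increases were in Myof, a membrane repair gene, which rose from 7.55 ± 0.542 to 21.7 ± 2.0 CPM (log2 fold change 1.53), and in Igfbp3, which encodes a binding protein of insulin-like growth factors and rose from 17.8 ± 0.673 to 32.7 ± 0.646 CPM (log2 fold change 0.88; SD, n = 3). Their adjusted p-values in edgeR's test were 4.31e-22 and 6.29e-19. Nt5e, an ectonucleotidase, had 63, 59 and 59 counts in WT and 5, 3 and 7 counts in Tnfaip2-/- EBs. Its log2 fold change was -3.52 (adjusted p = 1.92e-15, edgeR). Nt5e passed the expression filter only through the WT samples, so that no fall is concluded from this test. It is counted among the 4 that fell as description. Fjx1 and Nuak2 fell by 0.37 and 0.31 on the log2 scale.

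The paralogues of Ctgf and Cyr61 in the CCN family were low. Nov (Ccn3) had 7, 6 and 4 counts in WT and 24, 18 and 19 counts in Tnfaip2-/- EBs. Its log2 fold change was 1.86 ± 0.351 (standard error), with adjusted p = 9.34e-06 in edgeR. Nov passed the expression filter only through the Tnfaip2-/- samples, so that no rise is concluded from this test. Wisp1, Wisp2 and Wisp3 were not tested, with at most 10 counts in any sample.

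**Figure D3:**
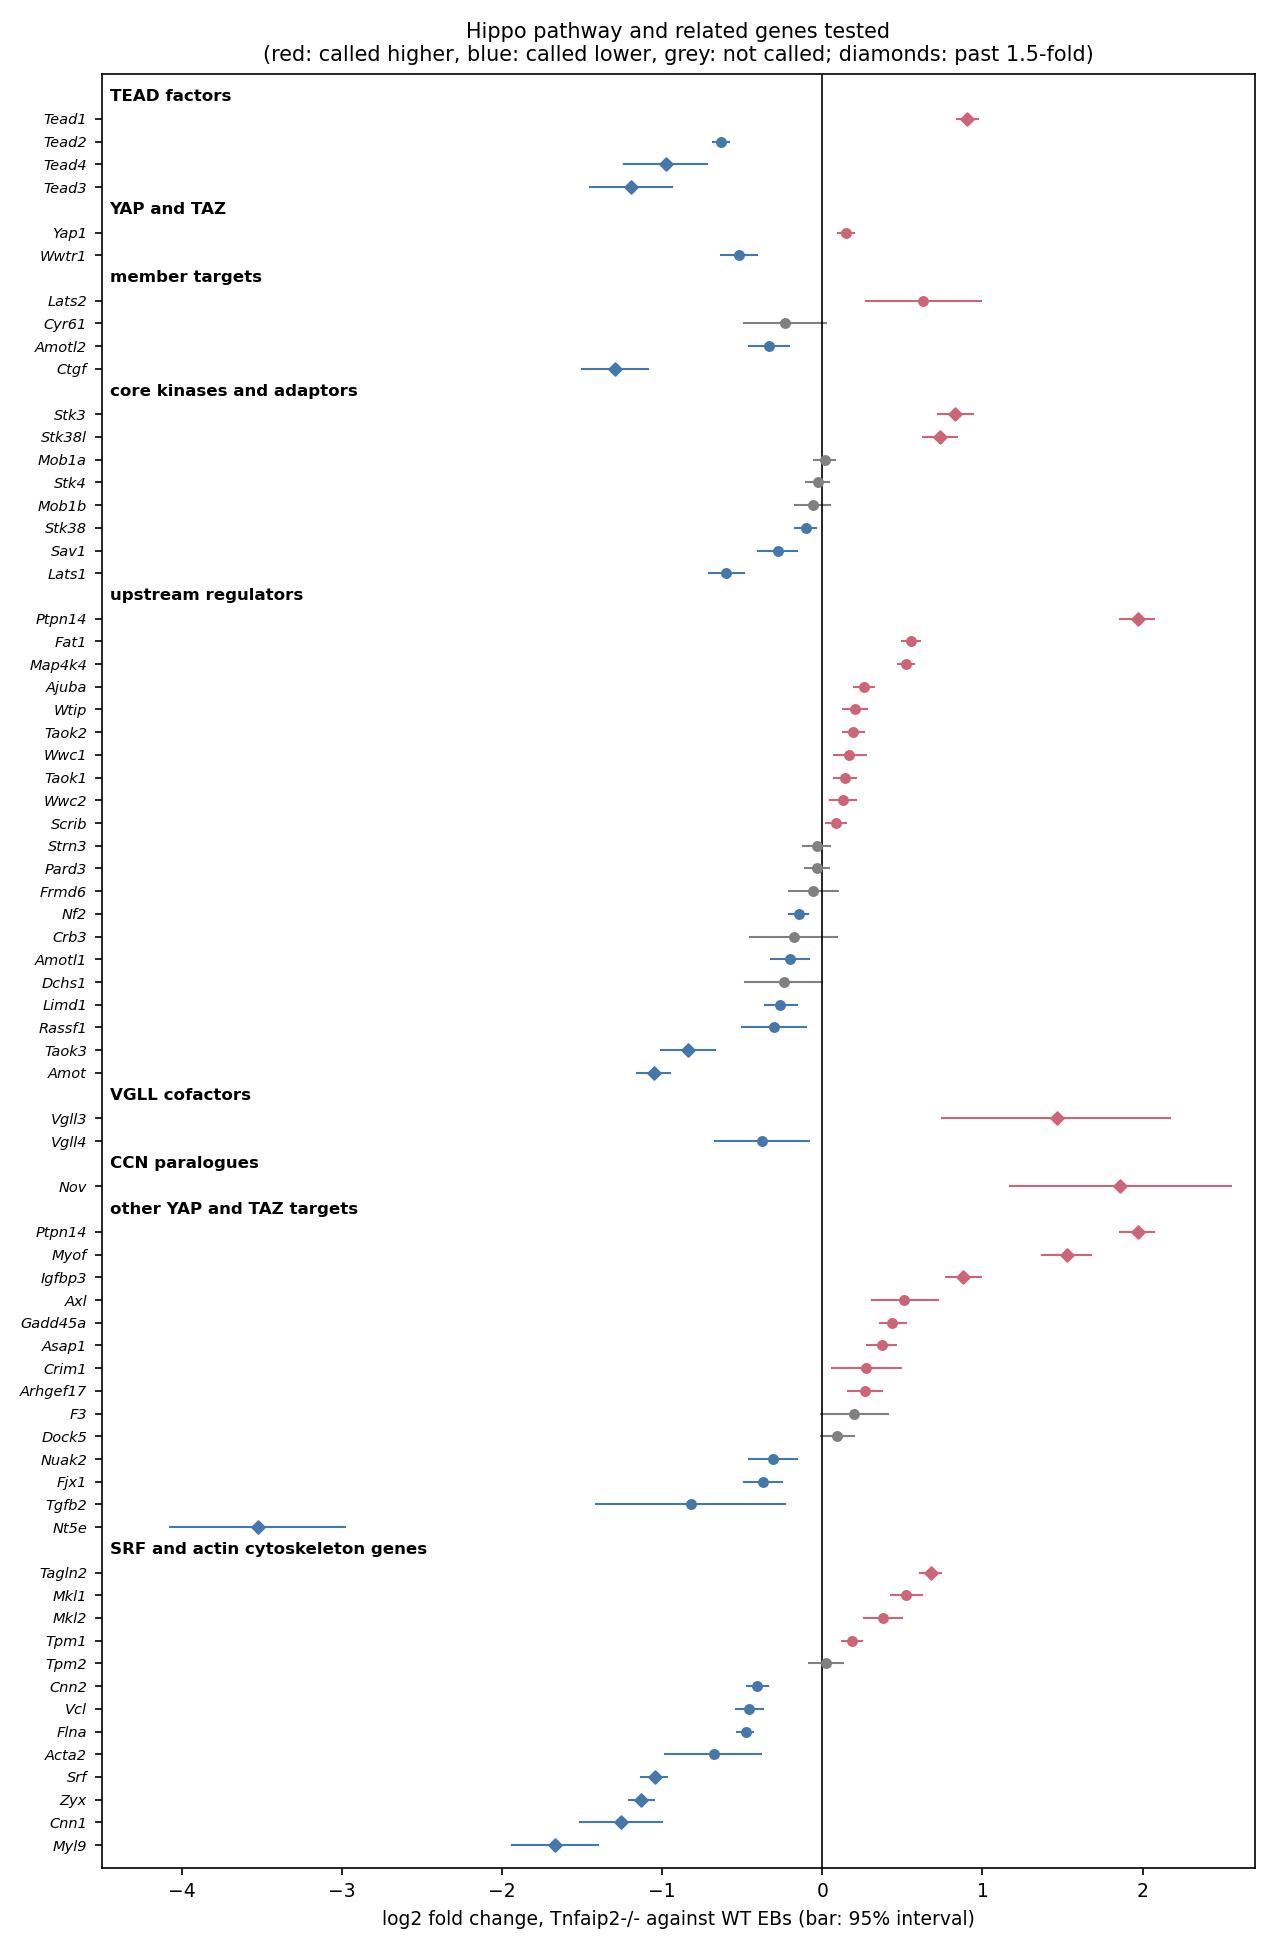
Log2 fold change of Tnfaip2-/- against WT EBs (horizontal axis; bars, 95% interval) for the tested genes of the pathway and of related lists, coloured by call (red higher, blue lower, grey not called), with diamonds for genes past 1.5-fold. Among the TEAD factors Tead1 lies at 0.91 and Tead3 at -1.20, and Ptpn14, which is on 2 lists, lies at 1.97.

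Ctgf and Cyr61 are also switched on by serum response factor (SRF), which acts on actin and cytoskeleton genes, so that these were listed too. Of 15 genes, 13 were tested, 4 rose (34.0% of all genes) and 8 fell (33.7% of all genes), with a median log2 fold change of -0.46. The decreases were largest in Myl9, a myosin light chain gene (log2 fold change -1.67), Cnn1, which encodes calponin (-1.26), and Zyx, which encodes the adhesion protein zyxin (-1.13), with adjusted p-values of 8.08e-15, 8.35e-12 and 1.1e-27 in edgeR's test. Srf itself, named after its values were seen, fell from a mean of 81.3 to 39.4 CPM (log2 fold change -1.05, adjusted p = 1.16e-26, edgeR). The genes of its cofactors, Mkl1 and Mkl2, rose by log2 fold changes of 0.52 and 0.38, as did Tagln2 (0.68). The part of SRF in the change of Ctgf was not tested.

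Markers of cell types that EBs can hold were listed as well, and the sums were also taken without the 1 or 2 genes that differed most, after seeing the data. Beside the counts of markers that rose or fell stand 34.0% and 33.7% of all genes tested. Summed over the 9 markers of pluripotent cells, expression was 2718, 2709 and 2715 CPM in the WT samples and 2506, 2507 and 2518 CPM in the Tnfaip2-/- samples, with 3 of the 9 tested rising and 5 falling. Without Pou5f1 the other 8 markers summed to 1955 ± 5.18 CPM in WT and 2091 ± 12.5 CPM in Tnfaip2-/- EBs, and without Pou5f1 and Zfp42 the other 7 summed to 1726 ± 10.1 and 1663 ± 11.9 CPM (SD, n = 3). The direction of this sum thus depended on the genes it held. Pou5f1 was the most abundant per length in WT EBs (338 RPKM) and Utf1 in Tnfaip2-/- EBs (252 RPKM).

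The 11 trophoblast markers, of interest beside Tead4, summed to 58.4, 58.4 and 55.5 CPM in the WT samples and 202, 195 and 202 CPM in the Tnfaip2-/- samples, with 5 of the 8 tested rising and 3 falling. Tfap2c differed by more than the sum did, and rose from 21.7 ± 1.07 to 171 ± 1.65 CPM (SD, n = 3; log2 fold change 2.98, adjusted p = 2.47e-45, edgeR). Without Tfap2c the other 10 markers summed to 35.8 ± 2.15 CPM in WT and 28.5 ± 2.27 CPM in Tnfaip2-/- EBs, and without Tfap2c and Eomes the other 9 summed to 7.42 ± 0.463 and 10.1 ± 0.758 CPM (SD, n = 3). Ascl2 rose from 1.65 ± 0.126 to 4.82 ± 0.299 CPM (log2 fold change 1.54), and Krt7 rose by a log2 fold change of 1.26. Hand1 had a log2 fold change of 1.75. Gcm1 had 0, 0 and 2 counts in WT and 21, 14 and 17 counts in Tnfaip2-/- EBs. Cdx2 had 42, 37 and 28 counts in WT and 1, 2 and 0 counts in Tnfaip2-/- EBs (adjusted p = 3.9e-11 in edgeR's test against 1.5-fold). Eomes and Tfap2a fell by 0.62 and 1.39 on the log2 scale. Krt7, Hand1, Gcm1 and Cdx2 were named after their values were seen. Hand1, Gcm1 and Cdx2 passed the expression filter only through the group where they were high, so that no change is concluded from their tests. They enter the counts of rising and falling markers as description. Eomes was the most abundant per length in WT EBs (6.83 RPKM) and Tfap2c in Tnfaip2-/- EBs (46.5 RPKM), and Elf5 had at most 3 counts in any sample. Tfap2c is also active in ES cells and germ cells and is not particular to the trophoblast.

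The 12 markers of primitive and visceral endoderm summed to 252 ± 2.73 CPM in WT and 353 ± 2.0 CPM in Tnfaip2-/- EBs (SD, n = 3), with 4 of the 12 tested rising and 6 falling. Without Sparc, the most abundant per length in both groups, the other 11 markers summed to 118 ± 1.46 and 151 ± 0.522 CPM, and without Sparc and Lama1 the other 10 summed to 89.0 ± 0.739 CPM in WT and 75.1 ± 0.68 CPM in Tnfaip2-/- EBs. Lama1 rose with a log2 fold change of 1.39, whereas Ttr and Foxa2 fell by 1.95 and 1.16 on the log2 scale. Afp, also named after its values were seen, had 21, 16 and 25 counts in WT and 1, 0 and 2 counts in Tnfaip2-/- EBs. Its adjusted p was 8.99e-08 in edgeR's test against 1.5-fold. Afp passed the expression filter only through the WT samples, so that no fall is concluded from this test. It is counted among the 6 that fell as description.

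The 10 markers of fibroblasts and mesenchyme, in which Ctgf and Cyr61 are often high, summed to 22.1, 23.0 and 20.7 CPM in the WT samples and 19.2, 18.5 and 18.6 CPM in the Tnfaip2-/- samples, with 1 of the 7 tested rising and 3 falling. Without Twist1 the other 9 markers summed to 18.4 ± 0.612 CPM in WT and 17.2 ± 0.747 CPM in Tnfaip2-/- EBs, with overlap, and without Twist1 and Pdgfrb the other 8 summed to 14.3 ± 0.758 and 11.9 ± 0.446 CPM, without overlap (SD, n = 3). Twist1 fell by 1.14 on the log2 scale, and Col1a2 fell from 1.7 ± 0.114 to 0.601 ± 0.188 CPM. Col3a1, named after its values were seen, had 12, 21 and 12 counts in WT and 1, 1 and 0 counts in Tnfaip2-/- EBs. Col3a1 passed the expression filter only through the WT samples, so that no fall is concluded from its test. It is counted among the 3 that fell as description. The log2 fold change of Pdgfrb was 0.36 (adjusted p = 0.00706, edgeR; range 0.00365 to 0.0974 over the alternative settings), and the call was lost with DESeq2 (0.0974). Per length, Twist1 was the most abundant in WT EBs (2.16 RPKM) and Thy1 in Tnfaip2-/- EBs (1.42 RPKM). Postn had 0 counts in each Tnfaip2-/- sample, and Lum had at most 1 count in any sample.

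The 6 endothelial markers summed to 30.4 ± 0.332 CPM in WT and 49.5 ± 2.81 CPM in Tnfaip2-/- EBs (SD, n = 3), with 3 of the 4 tested rising and 1 falling. Without Flt1 the other 5 summed to 27.4 ± 0.429 and 36.2 ± 2.9 CPM, and without Flt1 and Pecam1 the other 4 summed to 3.63 ± 0.603 and 3.52 ± 0.239 CPM, with overlap. Flt1, Tek and Pecam1 rose by log2 fold changes of 2.17, 0.81 and 0.45. Kdr, named after its values were seen, had a log2 fold change of -2.82. Kdr passed the expression filter only through the WT samples, so that no fall is concluded from its test. It is counted as the 1 that fell as description. Pecam1 was the most abundant per length in both groups, and Emcn had at most 2 counts in any sample. The 7 markers of simple epithelium summed to 528 ± 5.16 CPM in WT and 544 ± 6.24 CPM in Tnfaip2-/- EBs (SD, n = 3), with 2 of the 7 tested rising and 2 falling. Krt19 rose with a log2 fold change of 4.33, and Epcam fell by 0.47 on the log2 scale. Without Krt19 the other 6 summed to 525 ± 5.21 CPM in WT and 491 ± 5.22 CPM in Tnfaip2-/- EBs, and without Krt19 and Epcam the other 5 summed to 379 ± 6.08 and 385 ± 4.44 CPM, with overlap. Cdh1 was the most abundant per length in both groups. The part of any of these cell types in the changes of the TEAD, YAP and target genes was not tested.

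**Figure D4:**
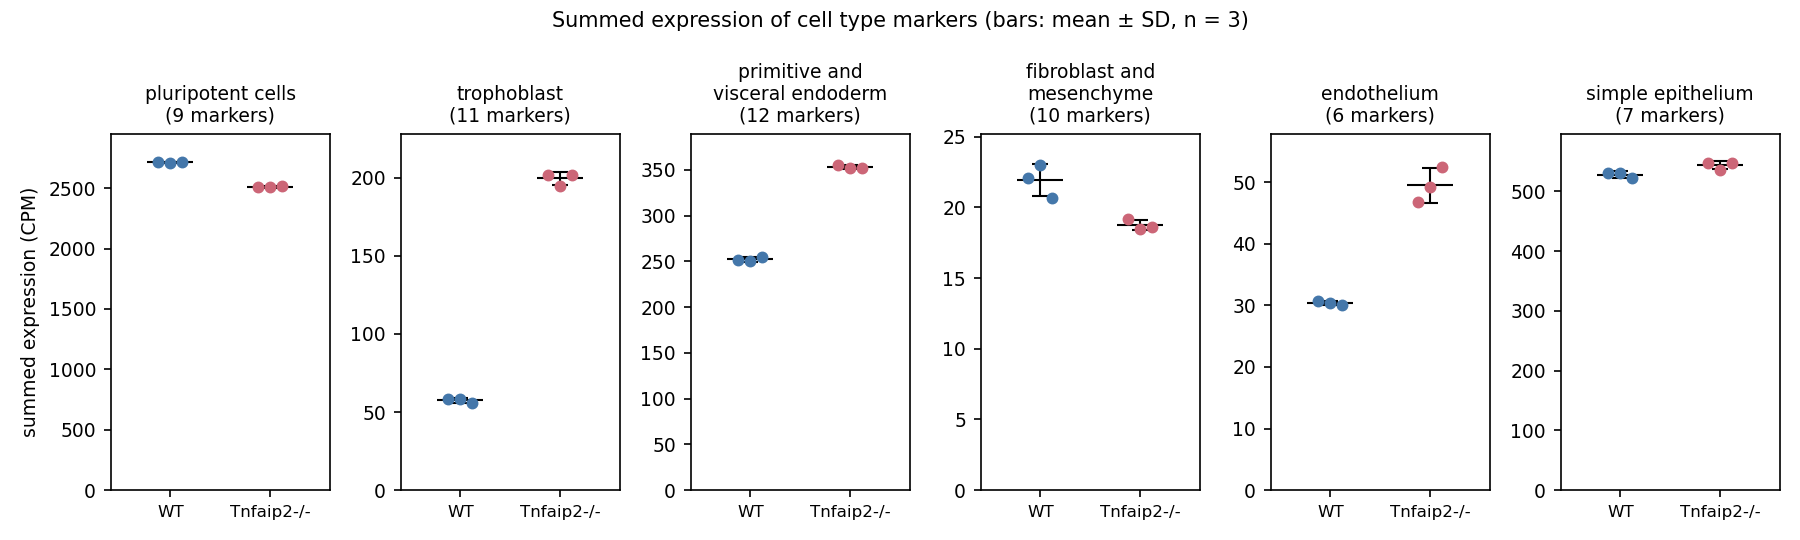
Summed expression in CPM (vertical axes from 0) of the markers of each cell type in each WT (blue) and Tnfaip2-/- (red) EB sample, with points for samples and bars for the mean ± SD (n = 3). The trophoblast sum is at 57.4 CPM in WT and 199.6 CPM in Tnfaip2-/- EBs, with Tfap2c at 21.7 and 171 CPM, and the sum for fibroblasts and mesenchyme is at 21.9 and 18.8 CPM.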

How the data were processed

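RNA from EBs of the parental WT line and of the Tnfaip2-/- line (n = 3 each) was sequenced by the authors with an unstranded kit. The authors mapped the reads to GRCm38 with TopHat2 (2.1.0) and counted them with featureCounts (1.5.0), and the deposited table holds the count of each gene in each sample. How the counting treated bases shared by overlapping genes was not stated for these libraries. Genes with too few counts were removed with filterByExpr (minimum count 10, minimum total 15) in edgeR (4.0.16, with limma 3.58.1 and R 4.3.3), which left 17849 of 52636 genes. Vgll3, Nov, Gcm1, Hand1, Nt5e, Cdx2, Afp, Col3a1 and Kdr passed this filter only through the group where they were high. Their tests are therefore given as description, also where they enter the counts of lists. CPM were computed here from TMM-scaled library sizes, and RPKM from CPM and the union of the exons of each gene in GENCODE M21. With 21765931 to 23804489 counts per sample, 3 counts stand for 0.128 to 0.137 CPM. The genotypes were tested by the quasi-likelihood F test of edgeR, with Benjamini-Hochberg adjustment at a threshold of 0.05, and changes past 1.5-fold by its test against a minimum fold change. The fit was checked on simulated data in which few genes changed, evenly in both directions. That check does not cover the scaling of data in which most genes differ. The 95% intervals were computed from the log2 fold change and its standard error.

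Members and gene lists were chosen with earlier results of these data known. From each list, named genes came from the 3 called genes that rose most and the 3 that fell most, where expression averaged 1 CPM or more and the groups did not overlap, and from the most abundant markers. Kinases and adaptors, VGLL cofactors and CCN paralogues were named whatever their values, and Srf, Amotl1, Cdx2, Afp, Krt7, Hand1, Gcm1, Col3a1 and Kdr were added after their values were seen. The alternatives were other size factors, DESeq2 (1.42.0), no expression filter or one at 1 CPM in 3 samples, the legacy form of the fit, a replicate block, a threshold of 0.01, shrunken fold changes and leaving out each sample in turn. Other gene lengths, and marker sums without the genes that differed most, were chosen after seeing the data. Promoters were read from the RefSeq promoters of GRCm38.p6.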

Additional observations from a re-analysis of the deposited data

How the results depend on the processing

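In each setting 9 of the 10 genes were called, also with a replicate block and at a threshold of 0.01. The call of Lats2 was close to the threshold with DESeq2 (adjusted p = 0.0493). The count of genes called in Tnfaip2-/- against WT EBs was 12084, 11841 with the block, 10195 with DESeq2, 12676 with no expression filter, 11361 with the filter at 1 CPM, 10578 at 0.01 and 11537 to 11744 when each sample was left out in turn. The count of genes past 1.5-fold in Tnfaip2-/- against WT EBs was 2798, and 1723 with DESeq2. Of the 10 genes, 4 were past 1.5-fold, also with the block, but 3 with DESeq2, 5 with no filter and 3 to 5 when each sample was left out. With DESeq2, 0 VGLL genes were lower, 2 VGLL genes higher, 0 fibroblast markers higher, and 1 epithelial marker was higher and 1 lower. With no filter, 2 VGLL genes and 1 epithelial marker were higher and 5 fibroblast markers lower. With the filter at 1 CPM, 0 VGLL and 0 CCN genes and 3 trophoblast markers were higher, because Vgll3, Nov, Gcm1 and Hand1 were then not tested. When each sample was left out, 0 to 1 VGLL genes were lower and 1 to 2 epithelial markers higher. The log2 fold change of Mob1a, 0.02 and not called, was -0.0008 with no filter (adjusted p = 0.995) and -0.0196 without Tnfaip2-/- replicate 1 (adjusted p = 0.637; range 0.231 to 0.995), and it ranged from -0.0196 to 0.0441 when each sample was left out. Settings chosen after seeing the data moved the makeup: the share of Tead1 was 10.3% in WT and 25.2% in Tnfaip2-/- EBs per longest coding transcript, and 25.3% and 49.9% in CPM; that of Tead2 was 71.1% and 48.4% in CPM; that of Yap1 was 85.8% and 90.6% per longest coding transcript, and 84.3% and 89.5% in CPM. Per unshared base, Ctgf was at 4.19 and 1.7 RPKM and Lats2 at 0.407 and 0.632 RPKM. The causes were not tested.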
